A study of Mus musculus with 5 samples.

Results

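Transcript levels of the Src family kinases and of genes that tie them to the kinase Csk were measured by RNA sequencing in mouse germinal centre light zone B cells of 2 donor genotypes. The set held 9 genes chosen by name: the Src family kinases Lyn, Blk, Fyn, Fgr, Lck, Src and Yes1, the Csk homologue Matk and the Csk-binding adaptor Pag1. All 9 were among the 23234 genes of the deposited table. Of the 9, 7 reached the level required for testing.

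The Csk(f/f)-labelled libraries (n = 2) came from donor B cells homozygous for floxed Csk (fl/fl) that also carried B1-8hi(KI/+), ERT2cre(KI/+) and the CD45.1/2 marker. The Csk(+/+) libraries (n = 3) came from donor B cells with the same B1-8hi(KI/+), ERT2cre(KI/+) and CD45.1/2 alleles and unfloxed Csk. ERT2cre is a Cre recombinase that tamoxifen switches on, and B1-8hi is a knock-in antibody heavy chain that gives B cells binding to the hapten NP. Naive donor cells of either kind went into C57BL/6J hosts, which keep their own B cells. On day 0 the hosts received NP-CGG, the hapten on a carrier protein, with alum, and both groups received tamoxifen on days 8 and 9. NP-binding donor light zone cells of the spleen were sorted on day 11. The animals' age, the locus that drives ERT2cre, the floxed exons and any pooling of animals are not given in the sources used here. The comparison asks how these transcripts differ between light zone B cells of the 2 genotype labels.

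Src family kinases sit on the inner face of the plasma membrane and are held shut by their own tail. Csk adds a phosphate to a tyrosine near the end of the tail, the tail folds onto the SH2 domain of the same kinase, and the phosphatase CD45 (Ptprc) removes that phosphate. After antigen binds the B cell receptor, Lyn, Fyn and Blk phosphorylate its signalling chains Ig alpha and Ig beta, which recruits the kinase Syk. Lyn also phosphorylates inhibitory receptors such as CD22 and Fc gamma RIIB.

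The tail that Csk acts on is written at the 3′ end of each kinase's coding sequence. The last 36 bases, stop codon included, are shown for the 7 kinases because they carry the tyrosine that makes a kinase a Csk target. They come from the principal GENCODE M21 transcript on GRCm38 and run 5′ to 3′ on the coding strand. Capitals mark the last tyrosine codon of the reading frame.
Lyn: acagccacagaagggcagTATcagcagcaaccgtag
Blk: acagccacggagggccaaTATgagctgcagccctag
Lck: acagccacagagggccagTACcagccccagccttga
Fyn: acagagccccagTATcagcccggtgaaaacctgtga
Fgr: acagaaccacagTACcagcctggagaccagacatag
Src: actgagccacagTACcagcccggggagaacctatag
Yes1: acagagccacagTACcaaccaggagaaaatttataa

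The tails fell into 2 kinds. Lyn, Blk and Lck have 4 codons between the tyrosine codon and the stop, while Fyn, Fgr, Src and Yes1 have 6. Over 27 bases centred on the tyrosine codon, pairs within the first kind shared 19 or 20 bases and pairs within the second kind 21 to 23. Pairs across the 2 kinds shared 11 to 18. The first kind supplied most of the family's transcript in these cells: Lyn, Blk and Lck made up 90.4% and 89.6% of the summed FPKM of the 7 kinases in Csk(f/f)-labelled libraries, and 86.3%, 88.0% and 88.4% in the Csk(+/+) libraries.

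Values are FPKM, fragment counts scaled to transcript length and library size, so that levels can be compared between genes. From the spacing of the smallest values, library depth was estimated at 9560000 to 23600000 fragments. The limma test on log2(FPKM + 1) covered the 10242 genes that reached 1 FPKM in 2 or more libraries, and its threshold was a Benjamini-Hochberg adjusted p of 0.05. Fold changes on this scale understate those of low genes, and an exact 0 can be a failed estimate. Germinal centre B cell markers were high in every library, their 10 genes summing to 2983 and 3002 FPKM in Csk(f/f)-labelled libraries and to 2640 to 3151 in the Csk(+/+) libraries. No dark zone library was analysed here, so the light zone label was not checked. Csk(+/+) replicate 3 stood apart, with a limma array weight of 0.259 against 1.35 or more in the other 4 libraries. A group of 2 cannot show which of its libraries is off, so both Csk(f/f)-labelled libraries had the same weight (1.36).

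Csk itself, the kinase targeted by the design, did not have lower values under the Csk(f/f) label. It had 453 and 476 FPKM there, against 378, 436 and 415 FPKM in the Csk(+/+) libraries. Both labelled libraries were above all Csk(+/+) libraries, a pattern that 20.7% of all tested genes shared. The log2 fold change was 0.18 ± 0.14 (SE), with a limma adjusted p of 0.439. It turned to -0.14 after the correction for GC content described below, so no direction is given. The exact permutation test, two-sided, gave p = 0.2, but with 10 splits its smallest p is 0.1, so it could not have passed. Fragments from exons that Cre leaves in place also count toward FPKM, and the floxed exons are not known here, so these values do not check the genotype and the groups are called by their labels.

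Across the 5 libraries the family ran from over 100 FPKM to nearly nothing. By mean FPKM the order was Blk (135), Lck (111), Lyn (75.7), Fyn (30.4), Pag1 (16.0), Matk (14.8), Fgr (10.4), Yes1 (0.328) and Src (0.0860). Most neighbours in that order kept it in all 5 libraries, but Blk was above Lck in 3 and Pag1 above Matk in 2, and Yes1 was above Src in 4. The order of these 3 pairs by mean therefore does not hold in every library, and for 2 of them it went partly with the label. Blk was above Lck in both Csk(f/f)-labelled libraries and in Csk(+/+) replicate 2. Pag1 was above Matk in Csk(+/+) replicates 1 and 2 and under it in both labelled libraries. Blk, Lck and Lyn lay above 93.1%, 91.6% and 87.9% of tested genes by mean FPKM, and Fgr above 45.6%.

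**Figure D1:**
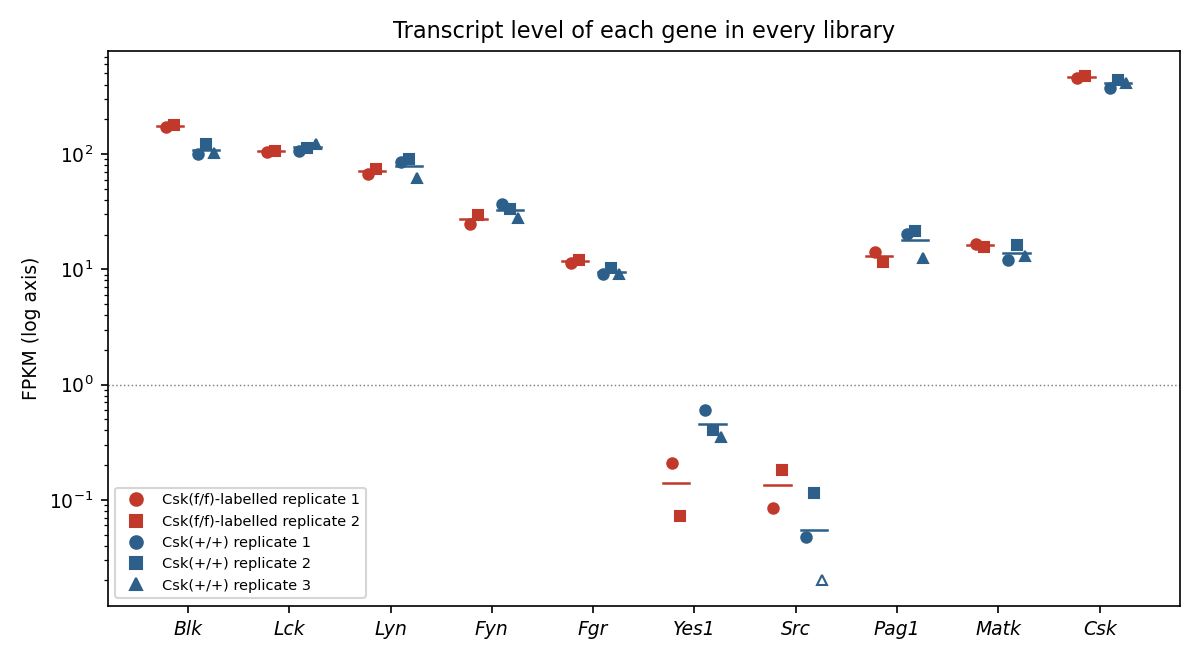
FPKM (log axis) of the 7 Src family kinases, Pag1, Matk and Csk in each library, with red symbols for the 2 Csk(f/f)-labelled libraries, blue symbols for the 3 Csk(+/+) libraries and a line at each group's mean. The dotted line is 1 FPKM and the open triangle stands for a listed 0, drawn at the foot of the axis. Among the kinases above that line, Blk is the one whose red symbols (173 and 179 FPKM) lie clearest of its blue ones (100.3 to 121 FPKM), and Yes1 and Src lie under 1 FPKM in every library.

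Between the groups, 0 of the 7 tested members passed the adjusted limma threshold, where 0.0781% of all tested genes did, 0.0391% higher and 0.0391% lower. With an unadjusted p under 0.05, 1 member (Blk) was on the higher side and 0 on the lower side, where 8.07% and 13.6% of all tested genes were, 21.7% in all. Of the 7 tested genes, 2 (Blk and Fgr) had both labelled libraries above all Csk(+/+) libraries and 1 (Lck) had both below, and over all tested genes the shares were 20.7% and 24.5%, or 45.1% in all. At 3 of 7, the members' count was near that background and is not a result about them.

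Blk, a Src family kinase largely restricted to B lineage cells, had 173 and 179 FPKM in Csk(f/f)-labelled libraries, against 100.3, 121 and 102 FPKM in the Csk(+/+) libraries. The groups did not overlap, and the gap between them was larger than the spread within either. Mean FPKM was 176 ± 4.02 (SD, n = 2) under the Csk(f/f) label and 108 ± 11.6 (SD, n = 3) in the Csk(+/+) libraries. The log2 fold change was 0.70 ± 0.13 (SE), a fold of 1.63 with a 95% interval of 1.31 to 2.02, an unadjusted p of 0.00094 and an adjusted p of 0.132. In bulk samples more transcript per cell and more of the cells that express a gene cannot be told apart. Blk passed without Csk(+/+) replicate 3 (log2 fold change 0.67 ± 0.12, adjusted p = 0.0398) and with array weights (0.67, adjusted p = 0.0259), where 411 and 671 genes passed in all. It did not pass with the GC correction, either without that replicate (0.53, adjusted p = 0.0943) or with the replicate block (0.53, adjusted p = 0.0549).

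Lck, best known as the Src family kinase of the T cell receptor and also expressed by some B cells, was at a level like that of Blk in the Csk(+/+) libraries. It had 105 and 106 FPKM in Csk(f/f)-labelled libraries, against 107, 113 and 122 FPKM in the Csk(+/+) libraries. Both labelled libraries lay just under the lowest Csk(+/+) library, and the log2 fold change was -0.11 ± 0.12 (SE, adjusted p = 0.595). The CD3 chain genes Cd3e and Cd3g and the costimulator gene Icos were listed at 0 in all 5 libraries. Cd3d was at most 0.0858 FPKM in Csk(f/f)-labelled libraries and at most 0.412 in the Csk(+/+) libraries, and Cd4, Cd8a, Cd247 and Zap70 were at most 0.238 FPKM in any library. The 12 T cell markers summed to 72.0 and 83.2 FPKM in Csk(f/f)-labelled libraries and to 63.6 to 78.9 in the Csk(+/+) libraries. Most of that sum was Cd2, an adhesion receptor that mouse B cells also carry, at 71.1 and 55.6 FPKM in the labelled and 53.4 to 70.8 FPKM in the Csk(+/+) libraries. Of the 12 markers, 3 were tested and none passed. Thy1 and Lat, both tested, were higher in the labelled libraries without overlap, as were 20.7% of all tested genes. Cd2, the other tested marker, overlapped. Cd5 and Cd4 were also higher without overlap, but they missed the filter and were not tested, so that share does not cover them. Cd4 values were close to 0, and the lower labelled value of Cd5 was just above its highest Csk(+/+) value. Cd4 had 0.0134 and 0.0662 FPKM in the labelled libraries and was listed at 0 in the Csk(+/+) libraries. Thy1 had 3.51 and 4.62 FPKM in the labelled libraries, against 1.86, 2.27 and 1.16 FPKM in the Csk(+/+) libraries. Its log2 fold change was 0.89 ± 0.24 (SE, limma adjusted p = 0.155), with 0.63 after the GC correction. Lat, an adaptor of the T cell receptor, had 7.51 and 10.1 FPKM in the labelled libraries, against 6.81, 6.84 and 6.24 FPKM in the Csk(+/+) libraries. For Lat the log2 fold change was 0.35 ± 0.19 (SE, limma adjusted p = 0.309), with 0.059 after the GC correction. Cd5 had 0.788 and 1.33 FPKM in the labelled libraries, against 0.778, 0.630 and 0.665 FPKM in the Csk(+/+) libraries. The part of T cells in the Lck values was not tested.

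**Figure D2:**
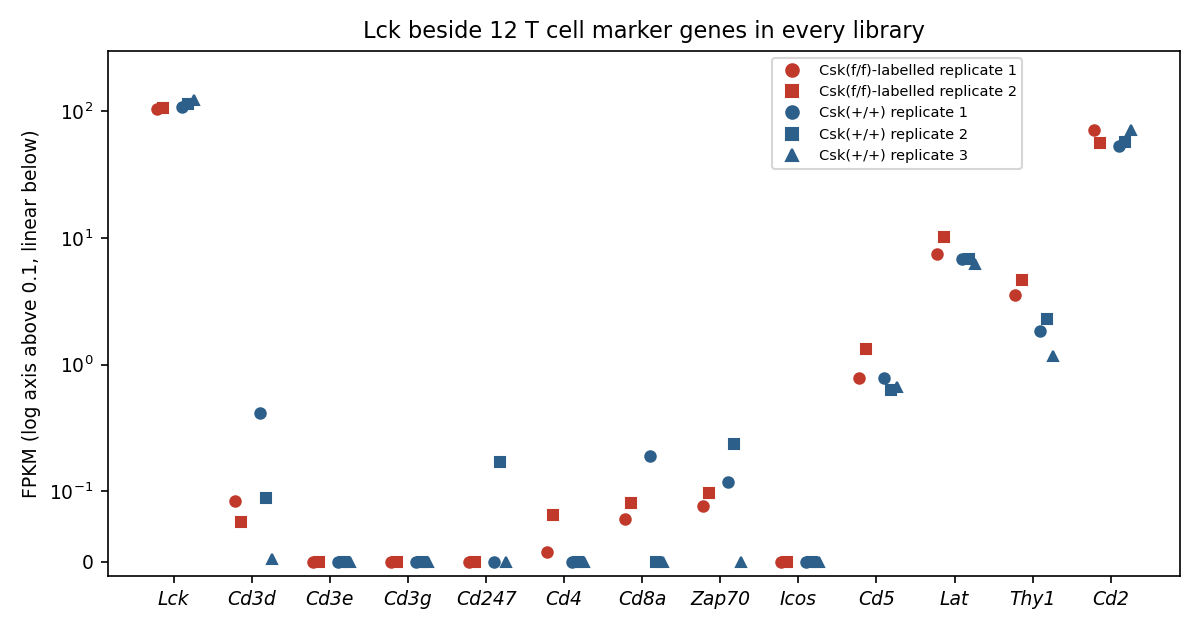
FPKM of Lck and of 12 T cell marker genes in each library (log axis above 0.1, linear below), with the 2 Csk(f/f)-labelled libraries in red and the 3 Csk(+/+) libraries in blue. Lck lies between 105 and 122 FPKM in all 5 libraries, while Cd3e, Cd3g and Icos are listed at 0 and Cd2 is the only marker above 50 FPKM.

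Lyn, the Src family kinase with both activating and inhibitory roles at the B cell receptor, had 66.7 and 74.6 FPKM in Csk(f/f)-labelled libraries, against 84.7, 90.8 and 61.8 FPKM in the Csk(+/+) libraries. Csk(+/+) replicate 3 was the lowest of all 5, so the groups overlapped. The log2 fold change was -0.14 ± 0.18 (SE, adjusted p = 0.651), and without that library it was -0.31 ± 0.12 (adjusted p = 0.108). Lyn was thus not shown to differ, with a 95% interval of 0.674 to 1.22 for the fold with all libraries.

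Fyn, a broadly expressed family member, had 24.8 and 29.4 FPKM in Csk(f/f)-labelled libraries, against 36.6, 33.5 and 28.0 FPKM in the Csk(+/+) libraries. The labelled libraries were low, but replicate 3 of Csk(+/+) fell between them. The log2 fold change was -0.26 ± 0.16 (SE, adjusted p = 0.367), and -0.36 ± 0.14 without that library (adjusted p = 0.110).

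Fgr, a family member known mainly from myeloid cells, had 11.4 and 12.2 FPKM in Csk(f/f)-labelled libraries, against 9.19, 10.2 and 9.16 FPKM in the Csk(+/+) libraries. The groups did not overlap, with a log2 fold change of 0.28 ± 0.16 (SE) and an adjusted p of 0.330. The 11 measured macrophage and monocyte markers, of which 3 were tested and 0 passed, summed to 25.6 and 26.7 FPKM in the labelled libraries and to 12.7 to 22.9 in the Csk(+/+) libraries. Lyz2 and Cd68 carried most of that sum. Lyz2 (lysozyme) had 12.1 and 10.2 FPKM in the labelled libraries, against 6.56, 8.01 and 1.91 FPKM in the Csk(+/+) libraries. For Lyz2 the groups did not overlap. Its log2 fold change was 1.06 ± 0.45 (SE, limma adjusted p = 0.228), with 1.14 after the GC correction. Cd68 had 11.0 and 13.1 FPKM in the labelled libraries, against 9.66, 12.8 and 9.53 FPKM in the Csk(+/+) libraries, and the groups overlapped. The defining markers were low: Itgam, Fcgr1, C1qa and C1qb were at most 0.361 FPKM in any library, and Mertk was listed at 0. Another 2 low genes, not tested, were higher in the labelled libraries without overlap. Such a pattern was seen in 20.7% of all tested genes, a share that does not cover genes this low. Emr1 (F4/80) had 0.191 and 0.346 FPKM in the labelled libraries, against 0.0954, 0.0773 and 0.0765 FPKM in the Csk(+/+) libraries, and C1qc had 0.318 and 0.225 FPKM in the labelled libraries, against 0.0682, 0 and 0 FPKM in the Csk(+/+) libraries. Neutrophil markers (8 genes) summed to 0.490 and 0.722 FPKM in the labelled and 0.539 to 3.57 in the Csk(+/+) libraries. The part of macrophages or monocytes in the Fgr values was not tested.

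Yes1 and Src, which many tissues express, were close to undetected and were not tested. Yes1 had 0.209 and 0.0728 FPKM in Csk(f/f)-labelled libraries, against 0.604, 0.401 and 0.354 FPKM in the Csk(+/+) libraries. The groups did not overlap, but these values correspond to only about 22.7 and 3.19 fragments in the labelled libraries and 43.8, 34.4 and 19.4 in the Csk(+/+) libraries, at the estimated depths. Without a filter on low values Yes1 had an adjusted p of 0.280. Src had 0.0844 and 0.183 FPKM in the labelled libraries, against 0.0475, 0.115 and 0 FPKM in the Csk(+/+) libraries, or at most about 8.45 fragments. Levels of Src did not separate the groups at this depth. Src is abundant in platelets, and the 7 platelet and megakaryocyte markers summed to 9.90 and 13.2 FPKM in the labelled and 6.36 to 14.4 in the Csk(+/+) libraries, most of it Itgb3 (7.91 and 11.1 FPKM in the labelled, 5.88 to 11.6 in the Csk(+/+) libraries). Itga2b had 0.467 and 0.533 FPKM in the labelled libraries, against 0.162, 0.364 and 0.0719 FPKM in the Csk(+/+) libraries. Gp9 had 0.509 and 0.472 FPKM in the labelled libraries, against 0, 0.386 and 0 FPKM in the Csk(+/+) libraries. Both were higher without overlap but missed the filter, so the 20.7% of all tested genes that were so does not cover them. Pf4, Ppbp, Itgb3, Gp1bb and Treml1 overlapped. The part of platelets in the Src values was not tested.

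Blk made up a larger share of the family's transcript in Csk(f/f)-labelled libraries. Its share of the summed FPKM of the 7 kinases was 45.4% and 44.5% in Csk(f/f)-labelled libraries, against 29.6%, 32.9% and 31.6% in the Csk(+/+) libraries. The share of Lyn was 17.5% and 18.6% in the labelled libraries, against 25.0%, 24.6% and 19.1% in the Csk(+/+) libraries. The share of Lck was 27.5% and 26.4% in the labelled libraries, against 31.6%, 30.6% and 37.8% in the Csk(+/+) libraries. The shares of these 3 kinases, and also those of Fyn, Fgr and Yes1, did not overlap between the groups, where the levels of 45.1% of all tested genes did not. Shares are bound to each other, so a higher one lowers the others, and they were not corrected for GC content. There were 2.59 and 2.39 Blk FPKM per Lyn FPKM in the labelled libraries and 1.18, 1.34 and 1.66 in the Csk(+/+) libraries. The summed FPKM of the 7 kinases was 381 and 401 in the labelled libraries, against 339, 369 and 324 in the Csk(+/+) libraries. Csk FPKM per summed kinase FPKM was 1.19 and 1.19 in the labelled libraries and 1.12, 1.18 and 1.28 in the Csk(+/+) libraries, so the labelled libraries lay within the Csk(+/+) range.

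**Figure D3:**
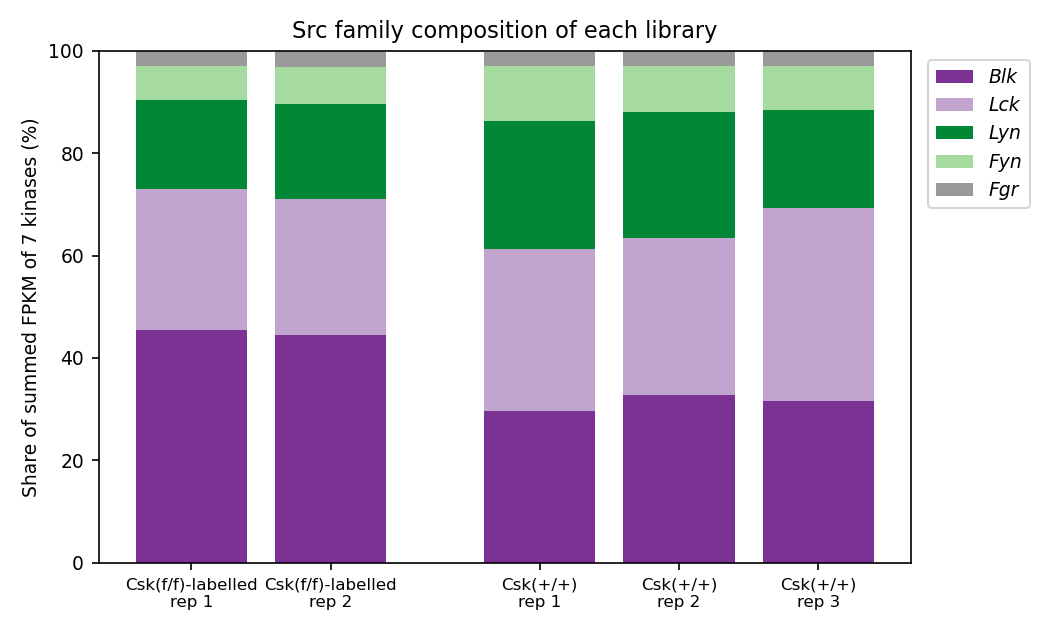
Share (%) of Blk, Lck, Lyn, Fyn and Fgr in the summed FPKM of 7 Src family kinases, 1 bar per library, with the 2 Csk(f/f)-labelled libraries on the left and the 3 Csk(+/+) libraries on the right (Yes1 and Src are too small to be seen). The Blk segment is 45.4% and 44.5% in the labelled libraries and 29.6% to 32.9% in the Csk(+/+) libraries.

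On the Csk side, neither the homologue nor the adaptor passed. Matk, which can phosphorylate the same tail tyrosine, had 16.7 and 15.7 FPKM in Csk(f/f)-labelled libraries, against 12.2, 16.3 and 13.1 FPKM in the Csk(+/+) libraries. Csk(+/+) replicate 2 lay between the labelled libraries, and the log2 fold change was 0.22 ± 0.18 (SE, adjusted p = 0.462). Csk outnumbered Matk in every library, by 27.2 and 30.2 times in FPKM in the labelled and by 31.1, 26.7 and 31.8 times in the Csk(+/+) libraries.

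Pag1, a transmembrane adaptor that docks Csk at the membrane beside Src family kinases, had 14.2 and 11.7 FPKM in Csk(f/f)-labelled libraries, against 20.1, 21.6 and 12.4 FPKM in the Csk(+/+) libraries. Replicate 3 of Csk(+/+) fell among the labelled libraries, while the other Csk(+/+) libraries were well above them. The log2 fold change was -0.42 ± 0.25 (SE, adjusted p = 0.335). Without Csk(+/+) replicate 3 it was -0.65 ± 0.15, with an adjusted p of 0.0516 that still missed the threshold.

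Transcripts richer in GC had higher fold changes, with a median log2 fold change of -0.47 in the lowest of 10 equal bins and 0.32 in the highest, so each member was set beside genes of like GC content. Among the 1013 genes with a GC content like that of Blk and Lck (53.5% to 55.4%) the median log2 fold change was 0.21, and Blk differed from it by 0.49 and Lck by -0.32. Differences from the median of genes of like GC content were 0.13 for Fgr, 0.14 for Lyn, -0.20 for Fyn and -0.25 for Pag1, with Matk at -0.094 and Csk at -0.13 from theirs. After the GC trend was subtracted from each library, Blk had a log2 fold change of 0.51 ± 0.13 (SE, adjusted p = 0.375) and stayed the one member with an unadjusted p under 0.05 (0.00542), where 9.96% of genes had one in either direction and 0.079% passed the adjusted threshold. Lck then had -0.32 ± 0.14 (unadjusted p = 0.0644), Fgr 0.15, Fyn -0.23 and Pag1 -0.29. The sign turned for Lyn (0.081), Matk (-0.091) and Csk (-0.14), so no direction is given for these 3.

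**Figure D4:**
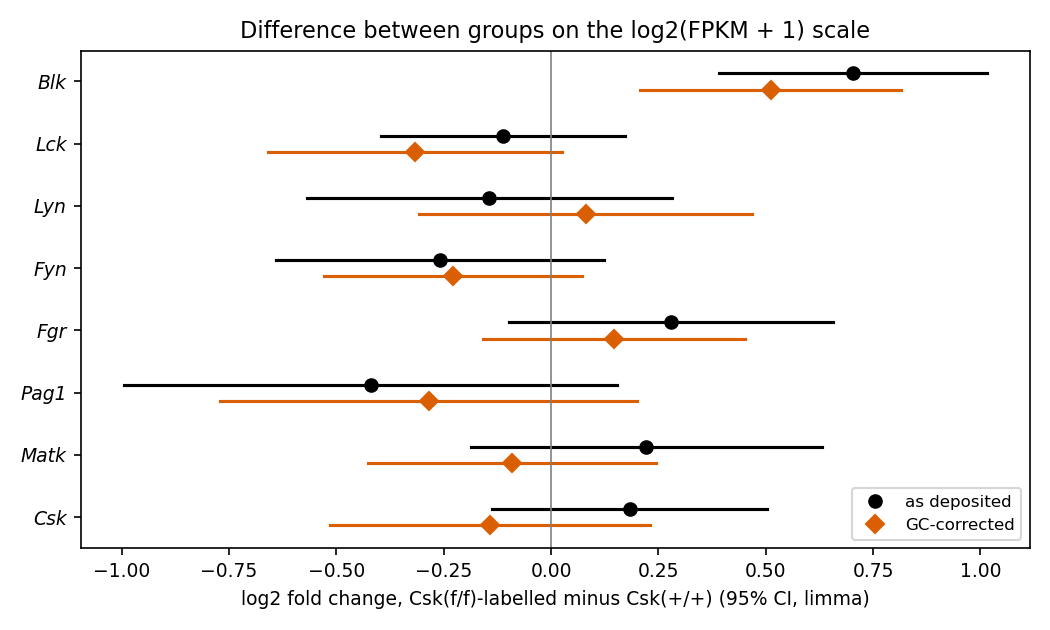
Log2 fold change with its 95% interval (limma), Csk(f/f)-labelled libraries minus Csk(+/+), for the 7 tested members and Csk, as deposited (black circles) and after correction for GC content (orange diamonds). Blk is the gene whose intervals stay above 0 in both, at 0.70 and 0.51, while Lyn, Matk and Csk lie on either side of 0.

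Genes whose profiles over the 5 libraries were closest to those of the most abundant members were found by the Euclidean distance between centred log2(FPKM + 1) values, among named protein-coding genes whose mean was within 2 times the member's. Of 911 candidates, Coro7, Dtx1, Psap and Pigt were closest to Blk, at distances of 0.13 to 0.20. Coro7 had 96.5 and 107 FPKM in Csk(f/f)-labelled libraries, against 62.6, 75.4 and 61.1 FPKM in the Csk(+/+) libraries, and Dtx1, a Notch pathway ubiquitin ligase, had 105 and 116 FPKM in the labelled libraries, against 60.8, 71.4 and 57.7 FPKM in the Csk(+/+) libraries. Of 1116 candidates, Calm3, Hadha, Vcp and Oat were closest to Lck (distances of 0.099 to 0.11). Calm3, a calmodulin gene, had 187 and 186 FPKM in Csk(f/f)-labelled libraries, against 199, 204 and 207 FPKM in the Csk(+/+) libraries. Of 1543 candidates, Ablim1, Pax5, Ikzf1 and Epb4.1 were closest to Lyn (0.095 to 0.13). Pax5, the B lineage transcription factor, had 101 and 123 FPKM in the labelled libraries, against 132, 150 and 98.4 FPKM in the Csk(+/+) libraries, with replicate 3 lowest as for Lyn. The libraries differ together in GC trend and depth, which these distances share.

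Genes that act beside the family were read from 4 lists, and 0 genes of any list passed the adjusted threshold. The genes named from each list are the 3 tested ones with the smallest unadjusted p (limma), so they are not typical of their list. Among 21 measured cytoplasmic tyrosine kinases outside the family, 14 were tested, and those with an unadjusted p under 0.05 were 2 on the higher and 3 on the lower side, where 8.07% and 13.6% of all tested genes were. After the GC correction they were 0 and 1, where 9.96% of all genes were in either direction. Their median log2 fold change was 0.27 as deposited and 0.084 after the GC correction, beside -0.012 and 0.0011 over all tested genes. Jak1, a cytokine receptor kinase, had 63.6 and 66.7 FPKM in the labelled libraries, against 94.0, 86.5 and 81.8 FPKM in the Csk(+/+) libraries (log2 fold change -0.42 ± 0.12, SE, adjusted p = 0.166). Jak3, which signals from the common gamma chain, had 81.3 and 90.3 FPKM in the labelled libraries, against 63.0, 67.3 and 63.8 FPKM in the Csk(+/+) libraries (0.40 ± 0.12, adjusted p = 0.169), with 0.071 after the GC correction. Fes, a kinase with a membrane-binding F-BAR domain, had 25.3 and 34.3 FPKM in the labelled libraries, against 19.9, 21.4 and 16.3 FPKM in the Csk(+/+) libraries (0.60 ± 0.19, adjusted p = 0.173), with 0.34 after the GC correction. The 7 kinases that fell short of the filter, among them Txk and Zap70 of T cells, were under 1 FPKM in every library.

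Among 12 phosphatases and ubiquitin ligases that act on Src family kinases, all 12 were tested, with 2 on the lower side and 0 on the higher side with an unadjusted p under 0.05, beside the same 13.6% and 8.07% of all tested genes. After the GC correction there were 0 on the lower and 1 on the higher side, beside 9.96% of all genes in either direction. The median log2 fold change was -0.14 as deposited and -0.044 after the correction. Ptprc, the CD45 phosphatase that opens the kinases, had 89.0 and 60.1 FPKM in Csk(f/f)-labelled libraries, against 101, 107 and 124 FPKM in the Csk(+/+) libraries. The groups did not overlap (log2 fold change -0.59 ± 0.19, SE, adjusted p = 0.175), but the value after the GC correction was -0.11. Ptpn12, the cytosolic PEST-type tyrosine phosphatase, had 1.91 and 1.55 FPKM in the labelled libraries, against 3.39, 3.14 and 2.72 FPKM in the Csk(+/+) libraries (-0.58 ± 0.19, adjusted p = 0.179), with -0.29 after the GC correction. Ptpn6, the SHP-1 phosphatase recruited by inhibitory receptors, had 499.6 and 540.0 FPKM in the labelled libraries, against 408, 471 and 403 FPKM in the Csk(+/+) libraries (0.28 ± 0.14, adjusted p = 0.279), with 0.061 after the GC correction.

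Of 13 further adaptors of Csk and Src family kinases, 11 were tested, with 2 on the higher side and 1 on the lower side with an unadjusted p under 0.05, beside 8.07% and 13.6% of all tested genes. After the GC correction there were 1 on the higher and 2 on the lower side, beside 9.96% of all genes in either direction. The median log2 fold change was 0.16 as deposited and -0.084 after the correction. The docking proteins Dok1 and Dok3, substrates of Lyn that restrain signalling, had 41.7 and 45.7 FPKM and 116 and 123 FPKM in Csk(f/f)-labelled libraries. In the Csk(+/+) libraries Dok1 had 30.0, 33.0 and 33.7 FPKM and Dok3 89.5, 109.5 and 83.1 FPKM (adjusted p = 0.171 and 0.228), and after the GC correction their log2 fold changes of 0.43 and 0.35 were 0.13 and 0.038. Pstpip1, a cytoskeletal adaptor bound by PEST-type phosphatases, had 9.21 and 11.4 FPKM in the labelled libraries, against 13.2, 15.9 and 14.1 FPKM in the Csk(+/+) libraries (-0.45 ± 0.17, SE, adjusted p = 0.208). Its GC-corrected log2 fold change was -0.74 (adjusted p = 0.283).

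Of 12 measured substrates at the B cell receptor and its co-receptors, 11 were tested, with 0 on either side at an unadjusted p under 0.05. Over all tested genes the shares were 8.07% higher and 13.6% lower. After the GC correction 1 was higher and 0 lower, where 9.96% of all genes were in either direction. The median log2 fold change of the substrates was 0.20 as deposited and 0.062 after the GC correction. Of the values as deposited, 10 of 11 were positive, as were 4991 of 10242 over all tested genes. These counts of positive values do not allow for GC content. Cd79b, which encodes Ig beta, had 1828 and 1580.4 FPKM in Csk(f/f)-labelled libraries, against 978.5, 1228 and 1627 FPKM in the Csk(+/+) libraries (0.44 ± 0.24, SE, adjusted p = 0.306), with 0.24 after the GC correction. Plcg2, the phospholipase of the receptor, had 219 and 252 FPKM in the labelled libraries, against 186, 229 and 172 FPKM in the Csk(+/+) libraries (0.27 ± 0.16, adjusted p = 0.335), with 0.060 after the GC correction. Fcgr2b, the inhibitory Fc receptor, had 56.7 and 64.6 FPKM in the labelled libraries, against 71.3, 72.6 and 67.1 FPKM in the Csk(+/+) libraries (-0.21 ± 0.13, SE, adjusted p = 0.337), and its sign turned to 0.030 after the GC correction.

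**Figure D5:**
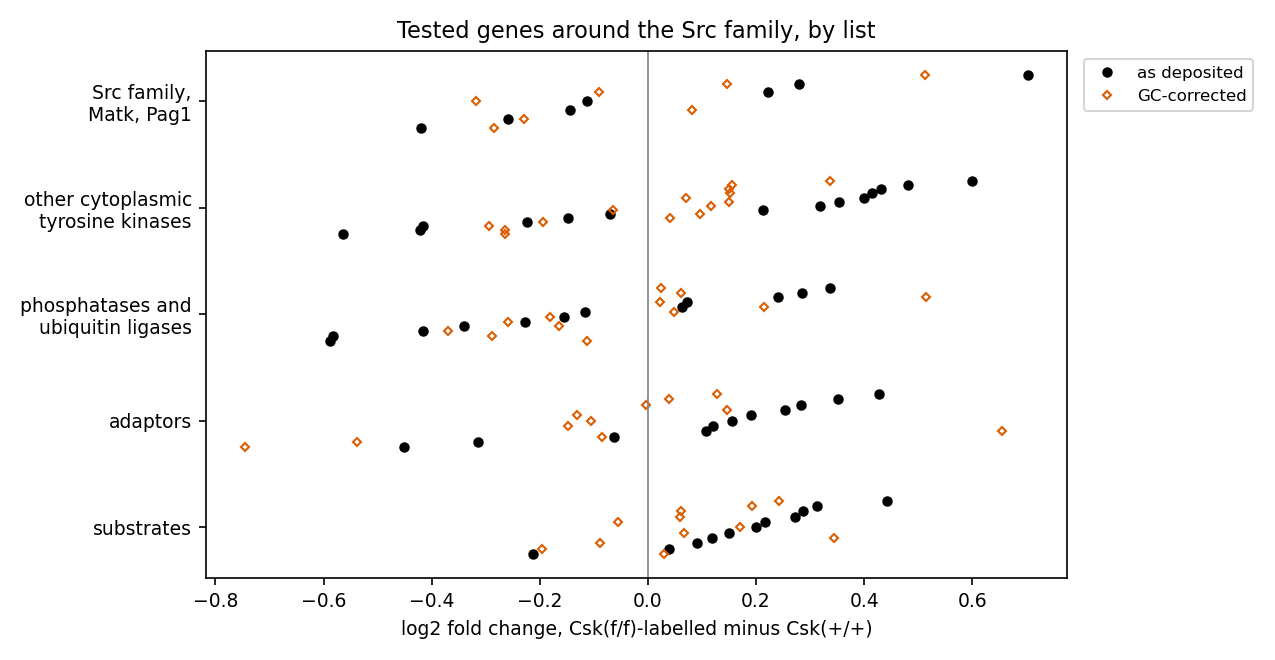
Log2 fold change, Csk(f/f)-labelled libraries minus Csk(+/+), of each tested gene of the Src family, Matk and Pag1 and of 4 lists of genes around them, as deposited (black) and GC-corrected (orange). No point passed the adjusted threshold, and Blk, at 0.70, is the highest black point shown.

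Natural killer cell markers (7 genes) summed to 3.03 and 4.77 FPKM in Csk(f/f)-labelled libraries and to 2.39 to 4.93 in the Csk(+/+) libraries. Follicular dendritic and stromal cell markers (6 genes) summed to 0.951 and 0.957 FPKM in the labelled and 0.637 to 0.824 in the Csk(+/+) libraries. Plasma cell markers (5 genes) summed to 199 and 221 FPKM in the labelled and 220.1 to 257.7 in the Csk(+/+) libraries, at levels like those of the abundant kinases, and their members differed in direction. Igj, the joining chain of secreted antibody, had 91.1 and 79.5 FPKM in the labelled libraries, against 128, 119 and 157 FPKM in the Csk(+/+) libraries (log2 fold change -0.64, adjusted p = 0.154). Xbp1, a secretory transcription factor, had 116 and 101 FPKM in the labelled libraries, against 79.8, 87.4 and 93.4 FPKM in the Csk(+/+) libraries (0.32, adjusted p = 0.223). Irf4 had 13.2 and 17.3 FPKM in the labelled libraries, against 12.1, 13.1 and 7.20 FPKM in the Csk(+/+) libraries (0.49, adjusted p = 0.303). None of the 3 overlapped between the groups, where 45.1% of all tested genes did not, and none passed. After the GC correction the log2 fold changes were -0.13 for Igj, 0.16 for Xbp1 and 0.61 for Irf4. Sdc1 and Prdm1 were under 1 FPKM in every library. The part of plasma cell transcripts in the members' values was not tested.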

How the data were processed

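Per the labels' protocols, TRIzol was used for RNA of the sorted cells and the NEBNext Ultra kit for the sequencing libraries. The authors deposited FPKM values per gene, 1 column per library, and the submitters' processing notes name TopHat2 2.0.8, Cufflinks 2.1.1 and mm9. The annotation and any scaling between libraries are not given in the sources used here. A repeated header line (1) was dropped. The series calls the libraries biological replicates.

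Genes with at least 1 FPKM in at least 2 of 5 libraries were fitted with limma 3.58.1 (R 4.3.3) on log2(FPKM + 1), with a trended variance prior and p-values adjusted by Benjamini-Hochberg over 10242 genes. GC content came from the longest GENCODE M21 transcript by gene name (10132 genes, 98.9%). The GC correction subtracted each library's lowess trend (span 0.3). No coordinates were used, since GRCm38 is not the authors' build. Depth was estimated from the 1-fragment step of genes of at least 1500 nt. The fit was tested on simulated data.

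Named genes were the members, Csk, up to 3 genes of the smallest p per pathway list and the 4 closest profiles to each of 3 members, leaving out receptor segments, predicted genes, small RNAs, mitochondrial transcripts and 1 chromosome. Members and lists were chosen with earlier results of these data known. Other alternatives were 2 pseudocounts (0.1 and 5), 2 filters, 2 rescalings, 2 priors, array weights, a replicate block and each library left out.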

Additional observations from a re-analysis of the deposited data

How the results depend on the processing

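None of the 7 tested members passed the adjusted threshold in the limma fit (1 had an unadjusted p under 0.05). The count was 1, Blk, with array weights and with the replicate block, and 0 to 1 with a library left out, the 1 being without Csk(+/+) replicate 3. The replicate block spends replicate 3 on its own term, so its log2 fold change of Blk (0.67, adjusted p = 0.0452) equals that without this library (adjusted p = 0.0398). The numbers were not taken to pair the libraries: there were only 2 pairs, whose deviations correlated at -0.13 and 0.11. With 2 labelled libraries the deviations of 1 mirror those of the other, so these values cannot decide whether the libraries are paired. Over 22 alternatives the log2 fold change of Blk ran from 0.45 to 0.79 and its adjusted p from 0.0259 to 0.9996. Over all genes 8 passed, against 5 without a filter, 671 with array weights, 492 with the replicate block, 162 with the block and GC correction, and 5 to 411 with a library left out (5 to 40 with the GC correction as well). The highest counts with a library left out, 411 and 40, were without Csk(+/+) replicate 3.

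The log2 fold change of Csk, 0.18 as deposited, was -0.14 with the GC correction, -0.073 with the block as well, and -0.19, -0.16, -0.075, -0.13 and -0.15 with the correction and each library left out. Under the correction Lyn was at 0.081, and at 0.082, 0.19 and 0.18 without Csk(+/+) replicate 1, Csk(+/+) replicate 2 or Csk(f/f) replicate 1, but at -0.031 and -0.0099 without Csk(+/+) replicate 3 or Csk(f/f) replicate 2 and -0.032 with the block. Matk was at -0.091, at -0.068 with the block, and at -0.17, -0.035, -0.068, -0.16 and -0.020 with a library left out. Fcgr2b was at 0.030, at 0.048 with the block, and at 0.060, 0.049 and 0.15 without Csk(+/+) replicate 2, Csk(+/+) replicate 3 or Csk(f/f) replicate 1. Ptprc (0.029) and Plcg2 (-0.0036) turned only with the correction and without Csk(f/f) replicate 2. Pstpip1 passed with the block and GC correction (-0.70, adjusted p = 0.0475), and Jak1 with array weights (-0.45, adjusted p = 0.0438). The cause was not tested.

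With 2 libraries against 3, differences of the size seen in most members could not be told from the spread between libraries, and Yes1 and Src, which missed the filter, rest on few fragments.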
